A study of Mus musculus with 6 samples.

Results

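A set of 9 muscle genes whose transcripts are known to respond to stretch, load or calcineurin signalling was read out in hearts that lack Arrdc4 and in wild-type hearts. They are Ankrd1, Ankrd23, Xirp1, Xirp2, Fhl1, Fhl2, Csrp3, Rcan1 and Synpo2l, and were chosen by symbol, through the Ensembl identifiers that carry these names. Each matched 1 row of the deposited table, so that the set is 9 of 49315 rows, and all 9 passed the filter on low counts that left 14508 genes for testing. RNA came from 3 hearts of ARRDC4 knock-out mice (KO), made by CRISPR-Cas9, and 3 hearts of wild-type mice (WT), all on a C57BL/6 background. Arrdc4 is an alpha-arrestin, an adaptor of ubiquitin ligases. Age, sex, the part of the heart taken and the number of founder lines are not given in the labels, which name no cell type or time of deletion for the knockout.

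In a heart muscle cell, force passes through the Z-disc, the spring segments of titin, the intercalated disc and the costamere. Proteins at these sites sense strain and some of them also enter the nucleus, where they act on transcription. Ankrd1 and Ankrd23 bind the titin spring, the LIM domain proteins Fhl1, Fhl2 and Csrp3 sit on titin or at the Z-disc, the Xin repeat proteins Xirp1 and Xirp2 cross-link actin at the intercalated disc and costamere, Synpo2l binds alpha-actinin at the Z-disc, and Rcan1 binds and restrains calcineurin, the calcium-activated phosphatase that drives NFAT. Several of these genes, Ankrd1 above all, are widely used as transcript markers of pressure overload.

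No member passed the test between genotypes, and none had KO values clear of the WT values. At an adjusted p under 0.05 (edgeR quasi-likelihood test, Benjamini-Hochberg over all 14508 genes), 0 of 9 members were called, where 0.00689% of all tested genes were called. That single called gene is Arrdc4 itself. At an unadjusted p under 0.05 the members again counted 0 of 9, against 1.23% of all tested genes. DESeq2 and limma-voom also called 0 members. For 0 of 9 members did the 3 KO hearts lie all above or all below the 3 WT hearts, and this held for 4.07% of all tested genes. Fitted values were higher in KO for 5 members and lower for 4, a share near the 52.3% of all tested genes that were higher. Among the 1950 tested genes whose log2 CPM averaged 6 or more, as did that of every member, 39.0% were higher. The median log2 fold change of the members was 0.05, and that of all tested genes was 0.01.

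The libraries differed in ways that touch the members. Arrdc4, the targeted gene, stood at 0.0678 ± 0.0432 CPM (counts scaled to a common library size) in KO hearts and 9.20 ± 1.60 CPM in WT hearts (SD, n = 3 each), and its 3 KO values lay below all WT values. Totals ran from 31529317 to 41036626 counts in KO libraries and from 29974501 to 37518160 in WT libraries. A library from each genotype, KO replicate 2 and WT replicate 3, stood apart through transcript length: the 1481 tested genes with under 1.5 kb of exon were 0.37 above their mean of the 6 hearts in both (median, log2 scale), against -0.23 to -0.06 in the other 4 libraries. In those 2 libraries the 4375 genes with 6 kb or more stood at -0.18 and -0.19. Xist, expressed from the inactive X of female cells, was at 39.5 to 50.1 CPM in KO replicates 2 and 3 and WT replicate 3 and at 0.0933 to 0.293 CPM in the other 3 hearts, where 4 Y-linked genes summed to 146 to 158 CPM. The KO group thus held 1 heart with Y-linked reads and the WT group 2. Cardiomyocyte markers summed to 70310 to 81338 CPM in KO hearts and 73789 to 82171 CPM in WT hearts. Among skeletal muscle markers the fast myosin Myh4 was at 0 in every library and 9 of 12 averaged under 1 CPM, while the heart also expresses Ckm and Acta1. The 8 atrial markers summed to 408 to 505 CPM in KO hearts and 482 to 495 CPM in WT hearts. Most of this was Kcnk3, at 354 ± 24.4 CPM in KO hearts and 362 ± 16.5 CPM in WT hearts. Of the 8, 3 averaged under 1 CPM, among them Sln and Bmp10, which reached at most 0.172 and 0.0524 CPM in any heart. Fibroblast markers summed to 868 to 2118 CPM in KO hearts and 1103 to 1679 CPM in WT hearts, with 8 of 9 fitted higher in KO, and the 7 epicardial markers to 5.72 to 37.0 CPM in KO hearts and 7.10 to 13.5 CPM in WT hearts, with 7 of 7 fitted higher. Both sums had their maximum in KO replicate 1 and their minimum over KO hearts in KO replicate 2, and their part in the members' levels was not tested.

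Levels per exon length, in TPM (counts per exon length, scaled to the same sum in each library), set 3 abundant members apart from 6 lower ones. Fhl2 led with 2235 ± 327 TPM in KO hearts and 2234 ± 493 TPM in WT hearts (SD, n = 3 each). Csrp3 followed with 991 ± 300 TPM in KO hearts and 1120 ± 323 TPM in WT hearts. Ankrd1 was the third, at 399.9 ± 191 TPM in KO hearts and 440.1 ± 235 TPM in WT hearts. This order, Fhl2 above Csrp3 above Ankrd1 above Ankrd23, held in 6 of 6 hearts. The means over all 6 hearts then ran through Ankrd23 (90.2 TPM), Xirp1 (76.5 TPM), Xirp2 (72.0 TPM), Fhl1 (66.9 TPM), Rcan1 (63.6 TPM) and Synpo2l (53.5 TPM). Neighbours among these 6 changed places between hearts, each pair keeping its order in 3 or 4 of 6, and so neighbours did not differ beyond their spread. This does not extend to all pairs further apart: Ankrd23 lay above Rcan1 and above Synpo2l in every heart. Exon length here is the union of all annotated exons, which for Csrp3 is 2671 bases where its longest coding transcript has 899, so that its TPM is low relative to that transcript. Ankrd23 shares 78.2% of its exon bases with the overlapping gene Gm42417 on the same strand, which is listed with 0 to 2 counts; whether shared reads were counted is not given in the sources used here, and the Ankrd23 level may be too low for that reason in all hearts alike.

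**Figure D1:**
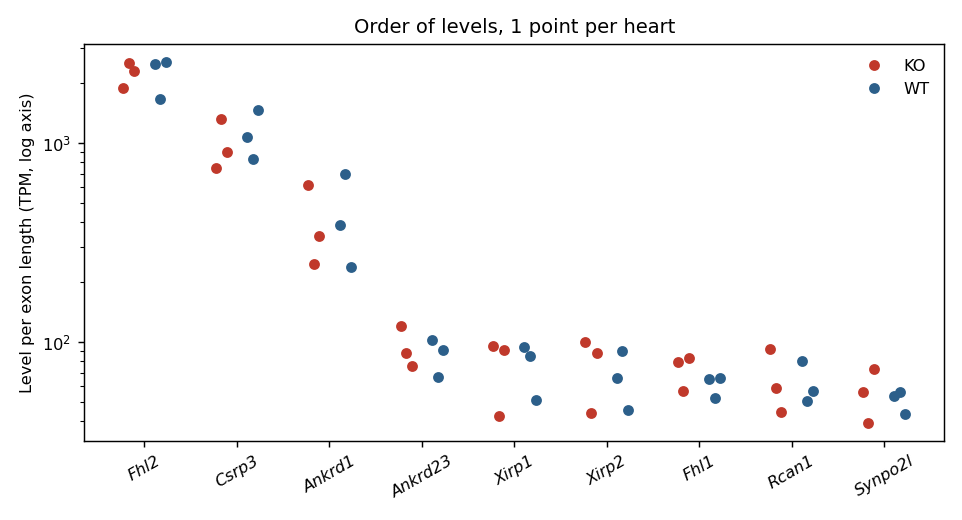
Level of each member per exon length (TPM, log axis), with 1 point per heart, KO in red left of WT in blue, members ordered by their mean. Fhl2, Csrp3 and Ankrd1 sit above the other 6 members in every heart, while the ranges of the 6 lower members over the hearts overlap.

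Of the ankyrin repeat genes of the titin spring, Ankrd1 had the widest range over the 6 hearts of any member and Ankrd23 one below the members' median. Ankrd1 (ENSMUSG00000024803, GRCm38 chromosome 19, 36111961 to 36120099, minus strand) encodes a cofactor that binds titin and also represses or assists cardiac promoters in the nucleus. It stood at 809, 410.1 and 421 CPM in KO replicates 1 to 3, against 503, 963 and 383 CPM in WT replicates 1 to 3. One heart of each genotype, KO replicate 1 and WT replicate 2, was high, and the groups overlapped. The log2 fold change, KO over WT, was -0.17 (SE 0.41, 95% interval -1.13 to 0.78), so that a 2-fold lower level in KO is not excluded. Highest and lowest heart differed 2.51-fold, all 3 hearts with Y-linked reads (503 to 963 CPM) lay above the 3 without (383 to 421 CPM), and the part of sex in this was not tested. Without WT replicate 2 the log2 fold change of Ankrd1 was 0.30, and with a term for Y-linked reads, chosen after seeing the data, it was 0.13, on the other side of 0.

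Ankrd23 (ENSMUSG00000067653, chromosome 1, 36530188 to 36536883, minus strand), a relative of Ankrd1 on the same titin segment, followed another pattern. Its values were 147, 136 and 87.3 CPM in KO replicates 1 to 3 and 124, 85.6 and 137 CPM in WT replicates 1 to 3. KO replicate 3 and WT replicate 2 were the low hearts and the groups overlapped; Ankrd1 was highest in that WT heart. The fold change was 0.10 on the log2 scale (SE 0.26, 95% interval -0.50 to 0.70). The third gene of this family, Ankrd2, best known from skeletal muscle, averaged 0.372 ± 0.226 CPM in KO hearts and 0.314 ± 0.193 CPM in WT hearts (SD, n = 3 each).

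The promoter of Ankrd1 is shown because its letters hold the M-CAT motif GGAATG, the binding motif of TEAD factors, at 2 places. The sequence is from RefSeq on GRCm38.p6, covers 250 bases before to 50 after the annotated start at chr19:36119795-36120094 on the minus strand, and has the motif in capitals.
Ankrd1: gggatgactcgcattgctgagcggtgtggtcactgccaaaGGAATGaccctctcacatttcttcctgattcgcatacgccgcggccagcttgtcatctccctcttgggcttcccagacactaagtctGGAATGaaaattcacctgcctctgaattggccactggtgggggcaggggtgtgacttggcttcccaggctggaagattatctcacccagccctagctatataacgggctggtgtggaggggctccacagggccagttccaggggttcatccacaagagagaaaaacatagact
Counted from the start site as 0, the matches begin at -210 and -123. Among 14 annotated start sites of 8 members (Xirp1 is named only), 3 windows held GGAATG on either strand, those of Ankrd1 and both of Ankrd23, and 14.7% of 32817 promoter windows of the same length did. A match is a description of letters and not a site. The transcript of the TEAD factor Tead1 was at 140.0 ± 29.1 CPM in KO hearts and 147 ± 30.2 CPM in WT hearts (SD, n = 3 each).

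The Xin repeat genes were low in the same hearts. Xirp1 (ENSMUSG00000079243, chromosome 9, 120013755 to 120023598, minus strand) encodes Xin, which binds actin and beta-catenin at the intercalated disc. It was at 255, 143 and 229 CPM in KO replicates 1 to 3, against 247, 237 and 166 CPM in WT replicates 1 to 3. The low hearts were KO replicate 2 and WT replicate 3, the pair that stands apart by transcript length. Its log2 fold change was -0.05 (SE 0.26, interval -0.66 to 0.55). Xirp2 (ENSMUSG00000027022, chromosome 2, 67446002 to 67526614, plus strand), a larger Xin protein known as a MEF2A target that responds to angiotensin II, was at 545, 302 and 452 CPM in KO replicates 1 to 3 and 354, 516 and 305 CPM in WT replicates 1 to 3. The same 2 hearts were lowest. Its log2 fold change was 0.14 (SE 0.28, interval -0.51 to 0.80), and a 2-fold difference was excluded for both Xin genes. Centred on each gene's mean of the 6 hearts, Xirp1 and Xirp2 differed by a root mean square of 0.21 on the log2 scale, the second smallest of the 36 pairs of members, as a description over 6 hearts that share their libraries.

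**Figure D2:**
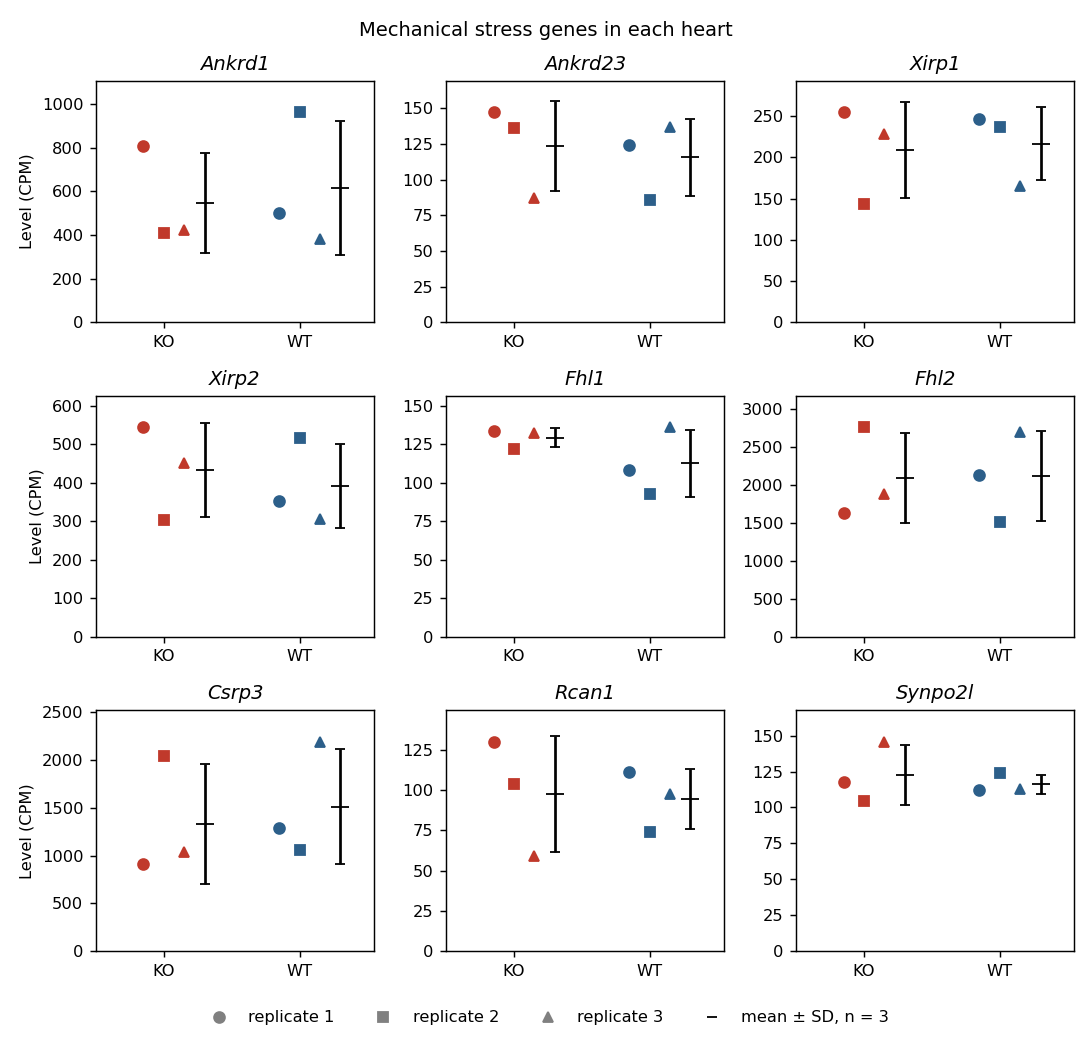
Level of each member (CPM, linear axis from 0) in every heart, KO in red left of WT in blue, with the symbol shape giving the replicate number and black bars the mean ± SD of 3 hearts. The KO and WT points overlap for every member, and Ankrd1, Csrp3 and Rcan1 spread the most between hearts.

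The start of Xirp2 is shown because its window holds a match to the MEF2 site, in capitals. It lies at chr2:67445752-67446051 on the plus strand of GRCm38.p6, from RefSeq.
Xirp2: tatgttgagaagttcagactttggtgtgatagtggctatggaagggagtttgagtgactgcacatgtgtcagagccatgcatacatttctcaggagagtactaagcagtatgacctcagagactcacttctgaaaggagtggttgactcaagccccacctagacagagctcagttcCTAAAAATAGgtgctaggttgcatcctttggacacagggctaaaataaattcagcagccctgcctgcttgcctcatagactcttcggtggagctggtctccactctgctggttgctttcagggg
The match begins at -74 from the start. MEF2 matches on either strand were in 4 of the 14 member windows, at Xirp2, at the upstream start of Fhl2 and at both starts of Synpo2l, and in 3.19% of all windows searched. Of the cardiac transcription factors listed, the smallest p values were those of Mef2a, at 199 ± 13.9 CPM in KO hearts and 185 ± 19.0 CPM in WT hearts and Mef2d, at 139.6 ± 28.1 and 127.5 ± 24.6 CPM in the same order (SD, n = 3 each). Neither passed the test, each with an adjusted p of 1 in edgeR.

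Of the LIM domain genes, Csrp3 and Fhl2 were the most abundant members and followed the opposite pattern to the Xin genes. Csrp3 (ENSMUSG00000030470, chromosome 7, 48830398 to 48848033, minus strand) encodes muscle LIM protein, whose loss gives dilated cardiomyopathy in mice. It stood at 907, 2046 and 1036 CPM in KO replicates 1 to 3, against 1288, 1056 and 2191 CPM in WT replicates 1 to 3. KO replicate 2 and WT replicate 3 were high by about the same amount and the groups overlapped. The log2 fold change was -0.18 (SE 0.39, interval -1.10 to 0.73), so that a 2-fold lower level in KO is not excluded. Without WT replicate 3 it was 0.18 and without KO replicate 1 it was 0.03, each on the other side of 0. Without KO replicate 2 it was -0.64. Its direction thus depended on which heart was left out.

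Fhl2 (ENSMUSG00000008136, chromosome 1, 43123074 to 43196984, minus strand) encodes a protein that holds metabolic enzymes to titin and acts as a transcriptional cofactor. Its levels were 1627, 2763 and 1880 CPM in KO replicates 1 to 3 and 2133, 1511 and 2703 CPM in WT replicates 1 to 3. Again KO replicate 2 and WT replicate 3 were the highest. The fold change was -0.02 on the log2 scale (SE 0.29, interval -0.69 to 0.65).

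Fhl1 (ENSMUSG00000023092, chromosome X, 56731787 to 56793346, plus strand), which binds titin and MAP kinases and is needed for the hypertrophic response to overload in mice, came nearest to a difference among the members, without passing the test. It was at 134, 122 and 132 CPM in KO replicates 1 to 3, against 109, 93.1 and 136 CPM in WT replicates 1 to 3. The KO hearts lay within 1.10-fold of each other, and 1 WT heart, replicate 3, lay above them all. The log2 fold change was 0.20 (SE 0.17, interval -0.20 to 0.60, unadjusted p = 0.280, adjusted p = 1, edgeR). As the gene is X-linked, the values were also set out by Y-linked reads: in hearts with them the level was 134 CPM in the KO heart and 109 and 93.1 CPM in the WT hearts, and in hearts without them it was 122 and 132 CPM in KO and 136 CPM in WT. With a term for Y-linked reads, chosen after seeing the data, the log2 fold change was 0.15. Without the 2 libraries that stand apart by length it was 0.39, with an unadjusted p of 0.0161 and an adjusted p of 0.695 in edgeR. In that fit 981 of 14610 genes had an unadjusted p under 0.05 in edgeR, against 179 of 14508 in the reported fit. Of the hearts kept, WT replicates 1 and 2 and KO replicate 1 had Y-linked reads and KO replicate 3 had not. The part of sex in this value was not tested.

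**Figure D3:**
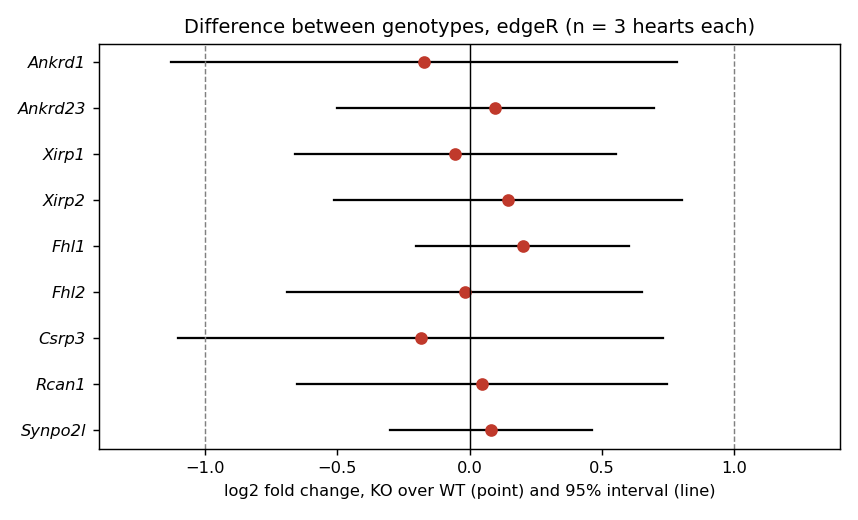
Log2 fold change of each member, KO over WT (red point), with its 95% interval (black line) from edgeR, n = 3 hearts per genotype; dashed lines mark a 2-fold difference either way. Every interval holds 0, and those of Ankrd1 and Csrp3 reach beyond the lower dashed line.

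Both start sites of Fhl2 are shown because each window holds a match to the CArG box, the motif of serum response factor. CArG and MEF2 matches are in capitals, the sequences are from RefSeq on GRCm38.p6, and they lie on the minus strand at chr1:43196712-43197011 and chr1:43163912-43164211.
Fhl2 upstream start: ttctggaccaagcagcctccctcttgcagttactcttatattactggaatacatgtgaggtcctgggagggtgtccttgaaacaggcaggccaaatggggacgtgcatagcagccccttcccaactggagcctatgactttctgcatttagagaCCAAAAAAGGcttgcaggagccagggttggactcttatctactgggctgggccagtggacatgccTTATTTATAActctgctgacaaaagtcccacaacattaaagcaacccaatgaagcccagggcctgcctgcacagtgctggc
Fhl2 downstream start: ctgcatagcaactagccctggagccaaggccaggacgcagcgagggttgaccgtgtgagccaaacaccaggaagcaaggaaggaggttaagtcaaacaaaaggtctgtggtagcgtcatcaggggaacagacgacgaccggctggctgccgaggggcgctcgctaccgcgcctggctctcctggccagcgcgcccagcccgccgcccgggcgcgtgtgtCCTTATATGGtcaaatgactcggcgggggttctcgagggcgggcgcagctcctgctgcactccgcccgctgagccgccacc
The CArG matches begin at -96 and -31, and the upstream window also holds a MEF2 match from -31. CArG matches on either strand were in 3 of 14 member windows, both of Fhl2 and 1 of Fhl1, and in 1.63% of all windows searched. The factor's own transcript, Srf, was at 109 ± 15.1 CPM in KO hearts and 107 ± 8.51 CPM in WT hearts (SD, n = 3 each). The counts are per gene and do not show which start was used.

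Paralogs of the LIM genes were far less abundant. Fhl3 averaged 8.17 ± 1.93 CPM in KO hearts and 8.94 ± 2.01 CPM in WT hearts. Csrp1, a smooth muscle relative of Csrp3, averaged 42.0 ± 4.97 CPM in KO hearts and 36.3 ± 3.92 CPM in WT hearts, and Csrp2 averaged 10.9 ± 1.30 and 8.41 ± 3.15 CPM in the same order. Fhl4, a relative known from testis, was near the floor at 0.350, 0.620 and 0.314 CPM in KO replicates 1 to 3 and 0.823, 0.799 and 1.10 CPM in WT replicates 1 to 3. Its groups did not overlap, and its log2 fold change of -1.11 (SE 0.36) had an unadjusted p of 0.0167 and an adjusted p of 1 in edgeR. Of all tested genes, 4.07% had groups without overlap and 1.23% an unadjusted p under 0.05 in edgeR. Fhl5 was at 0 in all 6 libraries.

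Rcan1 (ENSMUSG00000022951, chromosome 16, 92391953 to 92470867, minus strand), the calcineurin inhibitor, had both its highest and its lowest value in KO hearts. Its levels were 130, 104 and 59.1 CPM in KO replicates 1 to 3, against 111, 74.1 and 97.8 CPM in WT replicates 1 to 3. KO replicates 1 and 3 were the highest and the lowest of all 6 hearts, 2.20-fold apart, and the WT hearts lay between them. The log2 fold change was 0.05 (SE 0.30, interval -0.65 to 0.75). Its paralogs Rcan2, at 549.7 ± 45.9 CPM in KO hearts and 577.6 ± 29.7 CPM in WT hearts, and Rcan3, at 11.3 ± 1.57 and 10.9 ± 0.599 CPM in the same order, varied less between hearts (SD, n = 3 each).

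The downstream start of Rcan1 is shown because the transcript from it is the one known to be induced by calcineurin and NFAT, and the deposited counts pool it with the transcript from the upstream start. It lies at chr16:92400029-92400328 on the minus strand of GRCm38.p6, from RefSeq, with the NFAT core GGAAA and its reverse complement TTTCC in capitals.
Rcan1 downstream start: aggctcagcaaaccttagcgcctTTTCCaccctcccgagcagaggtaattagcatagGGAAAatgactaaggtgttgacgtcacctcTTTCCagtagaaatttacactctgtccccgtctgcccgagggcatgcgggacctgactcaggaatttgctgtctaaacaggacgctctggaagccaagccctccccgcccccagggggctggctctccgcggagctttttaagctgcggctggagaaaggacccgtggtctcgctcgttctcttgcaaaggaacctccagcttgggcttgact
The window holds 3 matches, which begin at -227, -193 and -163, and the upstream window holds 0. This short core is common: it was in 7 of 14 member windows and in 61.3% of all windows searched. The letters GGAAA and GGAATG share their first 4 bases but cannot match at the same place. TATAAA on the gene's strand was in 0 of the 14 member windows and in 8.32% of all windows. Of the 12 genes listed for calcineurin and NFAT, 0 were called, 7 were higher and 5 lower in KO, and their median log2 fold change was 0.01. Over all tested genes 0.00689% were called and 52.3% were higher. The listed genes with the smallest p were Myoz2, which ties calcineurin to the Z-disc (log2 fold change -0.30, SE 0.32), and the catalytic subunit Ppp3cc (-0.12, SE 0.20).

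Synpo2l (ENSMUSG00000039376, chromosome 14, 20658946 to 20668354, minus strand), which binds alpha-actinin at the Z-disc, was the steadiest member. It stood at 118, 105 and 146 CPM in KO replicates 1 to 3, against 112, 124 and 113 CPM in WT replicates 1 to 3. KO replicate 3 was the highest and KO replicate 2 the lowest, with the WT hearts between. The log2 fold change was 0.08 (SE 0.16), and its interval of -0.30 to 0.46 excluded a 1.5-fold difference, which held for 1 of 9 members and 39.7% of all tested genes. A 2-fold difference was excluded for 7 of 9 members and 76.4% of all tested genes. Among the 1950 tested genes whose log2 CPM averaged 6 or more, as did that of every member, it was excluded for 1797. The relatives Synpo and Synpo2 gave log2 fold changes of 0.05 (SE 0.24) and 0.02 (SE 0.18).

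Among themselves the members did not move as 1 group. KO replicate 1 was the highest heart for 4 of them, Ankrd23, Xirp1, Xirp2 and Rcan1, and the lowest for Csrp3. KO replicate 2 was lowest for Xirp1, Xirp2 and Synpo2l and highest for Fhl2, and WT replicate 2 was highest for Ankrd1 and lowest for Ankrd23, Fhl1 and Fhl2. The 3 closest pairs by root mean square difference of centred log2 values were Ankrd23 with Rcan1 (0.16), Xirp1 with Xirp2 and Csrp3 with Fhl2 (both 0.21). The median ratio of the highest to the lowest heart was 1.80-fold over the 9 members, 1.65-fold over all tested genes and 1.49-fold over the 1950 tested genes whose log2 CPM averaged 6 or more, which all members exceed. Since hearts are bulk tissue, fewer cells of a type and less RNA per cell cannot be told apart.

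**Figure D4:**
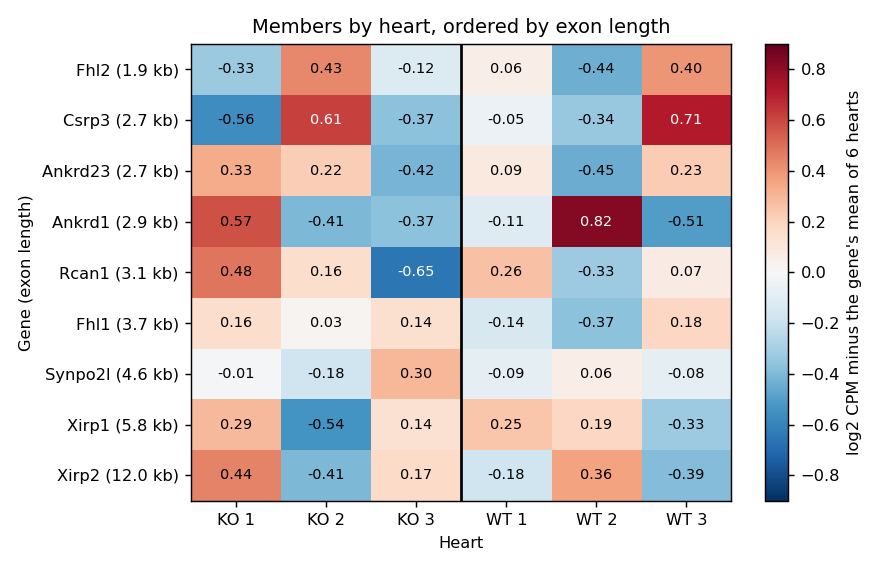
Centred level of each member (colour and number, log2 CPM minus the gene's mean of the 6 hearts) by heart, KO left of WT, with genes ordered from the shortest to the longest exon length. Csrp3 and Fhl2 are high and Xirp1, Xirp2 and Ankrd1 low in KO 2 and WT 3, while Ankrd1 is highest in KO 1 and WT 2.

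Part of this spread moved with transcript length. In KO replicate 2, Fhl2 (1.897 kb of exon) was 0.43 above its mean and Xirp2 (11.979 kb) was at -0.41, where genes of their lengths had medians of 0.25 and -0.23. WT replicate 3 gave 0.40 for Fhl2 and -0.39 for Xirp2, against medians of 0.24 and -0.23. After the length trend of each library was taken out through an offset, the ratio of highest to lowest heart was 1.36-fold for Xirp2, against 1.80-fold without it, and 1.48-fold for Fhl2, against 1.83-fold. Under the same offset the ratio was 2.25-fold for Csrp3, against 2.41-fold without it, and wider for Ankrd1, at 2.74-fold against 2.51-fold. Csrp3 (2.671 kb) stood at 0.61 in KO replicate 2 and 0.71 in WT replicate 3, where genes of 2 to 3 kb had a median of 0.12 in each. Ankrd1 (2.886 kb) stood at -0.41 and -0.51 in the same libraries, on the other side of that median and below the 25th percentile of that length class. Xirp1 (5.839 kb) stood at -0.54 and -0.33, where genes of 5 to 6 kb had a median of -0.08 in each.

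**Figure D5:**
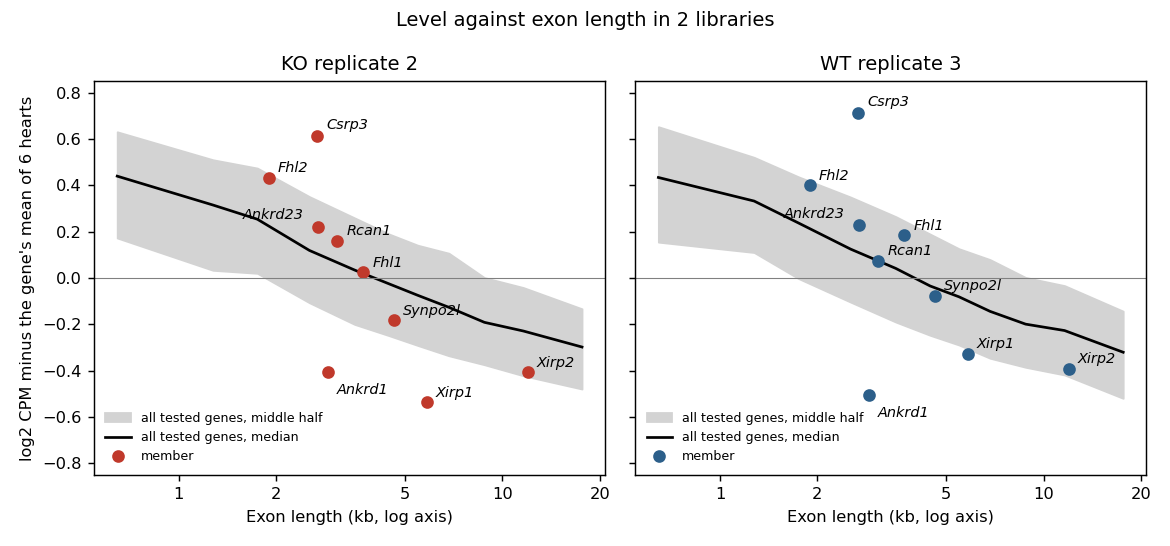
Centred level (log2 CPM minus the gene's mean of the 6 hearts) against exon length (kb, log axis) in KO replicate 2 and WT replicate 3, with members as coloured points, the median of all tested genes by length class as a black line and their range from percentile 25 to percentile 75 in grey. Csrp3 lies above the grey band, and Ankrd1 and Xirp1 below it, in both libraries, while Fhl2 and Xirp2 lie within it.

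Genes around the members were read from 10 lists of paralogs, partners, signalling and early response, holding 112 distinct tested genes. Of these, 0 were called, 69 were higher and 43 lower in KO, and the median log2 fold change was 0.04. Over all tested genes 0.00689% were called, 52.3% were higher and the median was 0.01. Of the tested genes whose log2 CPM averaged 6 or more, 39.0% were higher. An unadjusted p under 0.05 in edgeR was reached by 1 list gene, Fhl4, and by 1.23% of all tested genes. Among 13 binding partners at the Z-disc, I-band and costamere, 9 were higher and 4 lower, with Ttn at 2127 ± 1208 CPM in KO hearts and 1437 ± 1047 CPM in WT hearts (log2 fold change 0.57, SE 0.61). By heart Ttn was at 2308, 839 and 3235 CPM in KO replicates 1 to 3 and 879, 2645 and 788 CPM in WT replicates 1 to 3. Its lowest values were in the 2 libraries that stand apart by length, with WT replicate 1 close to them. The part of length in the Ttn level was not tested. The 15 genes of YAP and TEAD, which read out cell stretch, split into 7 higher and 8 lower, with the TEAD antagonist Vgll4 at 0.26 (SE 0.17) and the target Ccn1 at -0.24 (SE 0.17). Of 9 genes of SRF and its cofactors 7 were higher, with the smooth muscle genes Cnn1 at 0.73 (SE 0.43) and Tagln at 0.26 (SE 0.22). Cnn1 was low, at 1.32 ± 0.680 CPM in KO hearts and 0.799 ± 0.228 CPM in WT hearts. Among 17 integrin and membrane mechanosensors 15 were higher, where 52.3% of all tested genes were, and the median was 0.14, the stretch-activated channel Piezo2 standing at 0.98 (SE 0.60) and Pkd2 at 0.32 (SE 0.25). The summed level of the mechanosensors was 1593, 1219 and 1635 CPM in KO replicates 1 to 3 and 1385, 1499 and 1224 CPM in WT replicates 1 to 3, lowest in the 2 libraries that stand apart by length. The fibroblast markers gave 2118, 868 and 1834 CPM in KO replicates 1 to 3 and 1259, 1679 and 1103 CPM in WT replicates 1 to 3, lowest in the same libraries, and the part of length or of fibroblast RNA in the mechanosensor levels was not tested. Piezo2 was near the floor, at 0.469 ± 0.263 CPM in KO hearts and 0.238 ± 0.124 CPM in WT hearts. Titin kinase and muscle RING partners were higher for 3 of 11, with the protease Capn3 at 0.52 (SE 0.33) and Trim54 at -0.10 (SE 0.16). The 8 tested cardiac transcription factors that act with Ankrd1, Fhl2 or Csrp3 had a median of 0.07.

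The list of load and hypertrophy markers, some of which are often read beside Ankrd1, had no called member either. Of 10 such genes 3 were higher and 7 lower in KO, 0 were called, and the median log2 fold change was -0.21. Over all tested genes 52.3% were higher and 0.00689% were called. The listed markers with the smallest p were Myh7 (0.36, SE 0.26) and Mt2 (-0.50, SE 0.41). The skeletal actin gene Acta1 had its 2 highest hearts in KO replicate 1 (477 CPM) and WT replicate 2 (471 CPM), the same hearts as Ankrd1, and stood between 51.1 and 205 CPM in the other 4. The natriuretic peptide gene Nppb was instead highest in KO replicate 2 (302 CPM) and WT replicate 3 (350.4 CPM). These are the 2 libraries that stand apart by transcript length, and the part of length in the Nppb level was not tested. Acta1 and Nppb are named here after their values were seen. Of 14 tested immediate early genes 8 were higher and 6 lower, with Ier3 at 0.67 (SE 0.31) and Egr2 at 1.04 (SE 0.51). Log2 fold changes on this list ran from -1.92, for Nr4a1, to 1.04. Nr4a1, named after its values were seen, was at 65.0 CPM in WT replicate 2 and between 3.96 and 6.75 CPM in every other heart. Its lower mean in KO thus rests on a single WT heart. Egr2 was near the floor, at 0.554 ± 0.333 CPM in KO hearts and 0.275 ± 0.0749 CPM in WT hearts. The immediate early genes summed to 182 to 244 CPM in KO hearts and 163 to 343 CPM in WT hearts. Their maximum was in WT replicate 2, where Ankrd1 was also highest. The part of early response genes in the Ankrd1 level was not tested.

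The genes most like the 3 members with the widest range were sought among 11244 genes whose log2 CPM averaged 1 or more, by the root mean square difference of centred log2 values over the 6 hearts. Nearest to Ankrd1 were Ppp1r10 (0.10), 9330102E08Rik (0.13) and Errfi1, a feedback inhibitor of EGF receptor signalling (0.15). Ppp1r10 was at 32.3, 15.7 and 18.7 CPM in KO replicates 1 to 3 and 20.03, 42.4 and 14.1 CPM in WT replicates 1 to 3. Nearest to Csrp3 were Zfp930 (0.02), Tsen15 (0.03) and Ttll1 (0.03), all high in KO replicate 2 and WT replicate 3. Nearest to Rcan1 were Edn1, the gene of endothelin 1 (0.09), Inhbb, a subunit of activin and inhibin (0.12), and Rflnb (0.14). Edn1 was at 4.76, 3.89 and 2.38 CPM in KO replicates 1 to 3 and 3.67, 2.66 and 3.76 CPM in WT replicates 1 to 3. With 6 hearts and this many candidates such likeness is a description of these libraries.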

How the data were processed

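Heart RNA was purified with an RNeasy Mini Kit; library preparation used NEBNext Ultra II chemistry, per the labels' protocols. The authors deposited whole-number read counts per Ensembl gene and library, with no normalization. The submitters' processing notes list GRCm38.p6, STAR, Subread 1.5.2, featureCounts and DESeq2 but assign them no roles, and the annotation release, strand setting and handling of shared reads are not stated there. Of 49315 rows, 48970 matched a symbol.

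From the counts, genes were kept by filterByExpr (minimum count 10, minimum total 15), scaled by TMM and tested, KO against WT, with edgeR 4.0.16 in R 4.3.3 (quasi-likelihood F test, Benjamini-Hochberg over 14508 genes, threshold 0.05). CPM are counts over TMM-scaled library sizes; TPM used union exon lengths of GENCODE M21, which 99.8% of tested genes had. Standard errors and 95% intervals are from the fit. The test was tried on simulated data, where it called few of the smaller changes, so that the intervals say more about a member than a count of 0 calls. The smallest member count was 2256, with a 95% Poisson interval of 2164 to 2351, and intervals of this kind cover counting error only. Every pair of libraries differed by more than sampling noise (smallest chi-square over its degrees of freedom 7.31, for KO replicate 2 and WT replicate 3).

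The members and lists were chosen with earlier results of these data known. Genes named are the members, Arrdc4, detected paralogs, the 2 list genes with the smallest p where none was called, and the genes most like the 3 members of widest range; others are said to be named after their values were seen, or are factors of a motif shown or markers of a cell type or sex. Alternatives were DESeq2 size factors, library size alone, other filters (none, or 1 CPM in 3 samples), DESeq2 1.42.0, limma-voom 3.58.1, each library or the length pair left out, a replicate block, a length offset (spline, 6 degrees of freedom) and, added after seeing the data, a Y-read term (4 Y-linked genes summing to over 5 CPM).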

Additional observations from a re-analysis of the deposited data

How the results depend on the processing

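With 3 hearts per genotype the intervals of Ankrd1 and Csrp3 still hold a 2-fold difference, and counting error is small beside the spread between hearts. In all 16 other settings 0 of 9 members were called; the smallest adjusted p of any member was 0.613, for Csrp3. Their median log2 fold change stayed within -0.01 to 0.11 outside the settings that leave out 1 library, where it ran from -0.05 without KO replicate 1 to 0.07 without WT replicate 3. The number of genes called over all genes was 1 in the reported fit, 0 with the replicate block, 0 without KO replicate 3, 1 without any other single library, and 2 without WT replicate 3 and KO replicate 2 together, where the fit tests 4 hearts. The direction of 8 members turned somewhere, Fhl1 keeping its own. Leaving out 1 library gave ranges of log2 fold change of -0.57 to 0.30 for Ankrd1, -0.085 to 0.29 for Ankrd23, -0.22 to 0.16 for Xirp1, -0.056 to 0.39 for Xirp2, 0.08 to 0.36 for Fhl1, -0.27 to 0.20 for Fhl2, -0.64 to 0.18 for Csrp3, -0.21 to 0.31 for Rcan1 and -0.062 to 0.18 for Synpo2l. Rcan1 also turned to -0.0088 in limma-voom and -0.0020 with the replicate block, Fhl2 to 0.0025 with the length offset, and Ankrd1 to 0.13 and Xirp1 to 0.12 with a term for Y-linked reads; the cause was not tested. Deviations from the group mean correlated over genes at 0.17, -0.62 and -0.37 for same-numbered hearts. The highest correlation was that of KO replicate 2 with WT replicate 3 (0.66). Those libraries share a length trend, so the correlations cannot tell whether the numbers pair the hearts. No pairing is stated in the labels.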
